A study of Mus musculus with 386 samples.

Results

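The fat genes described here are 8 genes that mark adipocytes, the fat-storing cells: Ucp1 and Cidea, which mark brown fat, and Adipoq, Plin1, Fabp4, Cfd, Retn and Car3, which mark white fat or fat cells in general. They were taken by gene symbol, through probe clusters that the platform annotation pairs with 1 symbol and, for a symbol with several, the cluster with the highest mean. Of the 8, 7 had such a cluster among 18820 genes, and each had 1 cluster. Cfd, the gene of the secreted protease adipsin, was not analysed here. The platform was the Affymetrix Mouse Gene 1.1 ST array, used on kidney, lung, liver and brain of mice 23 days old. The mice were the 6 reciprocal F1 crosses CASTxPWK, PWKxCAST, CASTxWSB, WSBxCAST, PWKxWSB and WSBxPWK, with the dam named before the sire, and the 3 inbred strains CAST, PWK and WSB, in both sexes. There were 102 kidney arrays, 98 lung arrays, 101 liver arrays and 85 brain arrays from 111 animals, with 10 to 12 arrays per cross in kidney and in lung. The labels name no treatment and no engineered allele. The RNA came from powdered tissue, and fat attached to an organ was not measured on its own.

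Brown and white adipocytes share the machinery of fat storage but use it differently. White adipocytes keep triglyceride in a large droplet and secrete hormones, whereas brown adipocytes hold many small droplets and many mitochondria and burn fatty acids to make heat. Heat is made when uncoupling protein 1, the product of Ucp1, lets protons back through the inner mitochondrial membrane without making ATP. Mice carry fat beside the kidney and in the chest, and both places can hold brown as well as white fat. Brown adipocytes also express Adipoq, Plin1 and Fabp4, so these genes mark fat cells of either kind, while Ucp1 is largely restricted to brown and beige fat cells.

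For 5 of the 8 genes a promoter was listed in RefSeq on GRCm38.p6. The 250 bases before the start are shown for the leading brown-fat gene and a pair of white-fat genes. These 3 varied together between kidney arrays, as did the other measured fat genes. The letters in capitals mark AGGTCA, the core word of sites bound by nuclear receptors, or TTGCNNAA, a word bound by C/EBP factors, each searched on both strands.
Ucp1 (chr8:83290098-83290347, plus strand): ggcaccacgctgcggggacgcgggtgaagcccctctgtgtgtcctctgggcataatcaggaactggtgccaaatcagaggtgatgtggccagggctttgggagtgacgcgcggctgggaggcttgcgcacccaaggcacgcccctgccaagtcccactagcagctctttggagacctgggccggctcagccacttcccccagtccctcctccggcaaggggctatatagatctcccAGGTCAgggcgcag
Adipoq (chr16:23146286-23146535, plus strand): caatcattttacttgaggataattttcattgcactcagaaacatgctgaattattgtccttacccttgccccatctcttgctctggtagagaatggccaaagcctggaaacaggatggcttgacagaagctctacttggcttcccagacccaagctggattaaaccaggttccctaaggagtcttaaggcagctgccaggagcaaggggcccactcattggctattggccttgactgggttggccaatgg
Plin1 (chr7:79732777-79733026, minus strand): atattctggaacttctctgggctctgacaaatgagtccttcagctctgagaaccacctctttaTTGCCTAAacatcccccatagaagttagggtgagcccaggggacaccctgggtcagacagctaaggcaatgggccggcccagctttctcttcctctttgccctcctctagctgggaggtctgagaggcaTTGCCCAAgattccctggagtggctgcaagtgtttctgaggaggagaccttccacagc
AGGTCA was found in the Ucp1 window, 14 bases before the start, and in 14.0% of all 32851 promoter windows of this length. TTGCNNAA was found at 2 places in the Plin1 window, 187 and 58 bases before the start, and in 9.56% of all windows. Neither word, nor TATAAA (12.4% of windows), was in the Adipoq window. The windows of Cfd and Retn, which are not shown, held none of these words either. The Plin1 window precedes a transcript start that lies inside the gene's span in the RefSeq gene table, which ends at base 79732904, so the window overlaps the gene.

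All levels are log2 signals, normalised by the authors with RMA. The level of 1 gene is compared between arrays, and its height is not compared with that of another gene. Differences between a pair of genes on the same array are used only to compare the inbred strains. The median of all clusters lay between 5.89 and 6.36 per array, and the number of arrays limits the precision. On 2 arrays, of brain and of liver, the level of the sex-linked gene Xist went against the sex label, and leaving these arrays out changed no call in the tissue comparisons. The tissues carried their own markers: the mean of 8 kidney tubule markers was 12.43 on the median kidney array, and that of 8 lung epithelium markers 12.09 on the median lung array. Variants in probe targets were not analysed here, and a signal that differs by strain may or may not be a difference in transcript amount.

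Both brown-fat genes were far higher in kidney than in any other tissue. Ucp1 was 7.32 at the lowest, 10.46 at the median and 11.91 at the highest over the kidney arrays, and 4.28, 5.87 and 11.17 over the lung arrays. Liver lay between 3.83 and 5.17 with a median of 4.56, and brain between 4.03 and 4.92 with a median of 4.47. Every kidney array was thus above every liver and brain array for Ucp1, while 60 of 98 lung arrays were above the highest of them and the rest were not. Cidea, a lipid droplet protein abundant in mouse brown fat, was 6.0, 9.28 and 10.92 in kidney and 4.37, 5.84 and 10.02 in lung. It was 3.97, 4.72 and 5.36 in liver and 5.61, 6.30 and 6.74 in brain. For Cidea 101 of 102 kidney arrays, but 22 of 98 lung arrays, were above the highest brain array, and the brain median exceeded the lung median. In bulk tissue, fewer cells of a type and less RNA per cell cannot be told apart.

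The white-fat genes were also highest in kidney, with lung closer behind, except for Car3. Adipoq, which encodes the fat hormone adiponectin, was 6.40, 8.54 and 10.05 in kidney, 4.51, 6.97 and 8.79 in lung, 4.57, 5.35 and 6.23 in liver, and 4.28, 4.80 and 5.61 in brain. Plin1, the perilipin that coats the droplet of adipocytes, was 6.96, 9.17 and 10.48 in kidney, 5.21, 7.81 and 9.96 in lung, 4.63, 5.67 and 6.53 in liver, and 4.42, 5.09 and 5.77 in brain. For Adipoq 102 of 102 kidney arrays and 82 of 98 lung arrays lay above every brain and liver array, and for Plin1 102 and 92. Retn, which encodes the hormone resistin that mouse fat cells secrete, was 6.0, 8.27 and 9.91 in kidney, 5.74, 7.82 and 9.39 in lung, 4.72, 5.43 and 6.25 in liver, and 4.71, 5.24 and 5.71 in brain. Kidney and lung overlapped over nearly their whole range for Retn, since 97 of 98 lung arrays reached the lowest kidney array.

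Fabp4 and Car3 also had high levels in liver. Fabp4, a carrier of fatty acids in adipocytes that endothelial cells and macrophages make as well, was 8.23, 9.29 and 10.48 in kidney and 6.28, 7.43 and 8.96 in lung. It was 5.74, 6.98 and 8.49 in liver and 3.94, 4.47 and 5.39 in brain, so 99 of 102 kidney arrays but 3 of 98 lung arrays stood above the highest liver array. Car3, a carbonic anhydrase abundant in fat, liver and skeletal muscle, was 10.18, 11.55 and 12.42 in kidney and 8.16, 11.49 and 12.50 in lung. It was 11.24, 13.09 and 13.30 in liver and 5.40, 6.18 and 7.56 in brain. Liver was the highest tissue for Car3, and lung had a longer tail of low arrays than kidney.

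**Figure D1:**
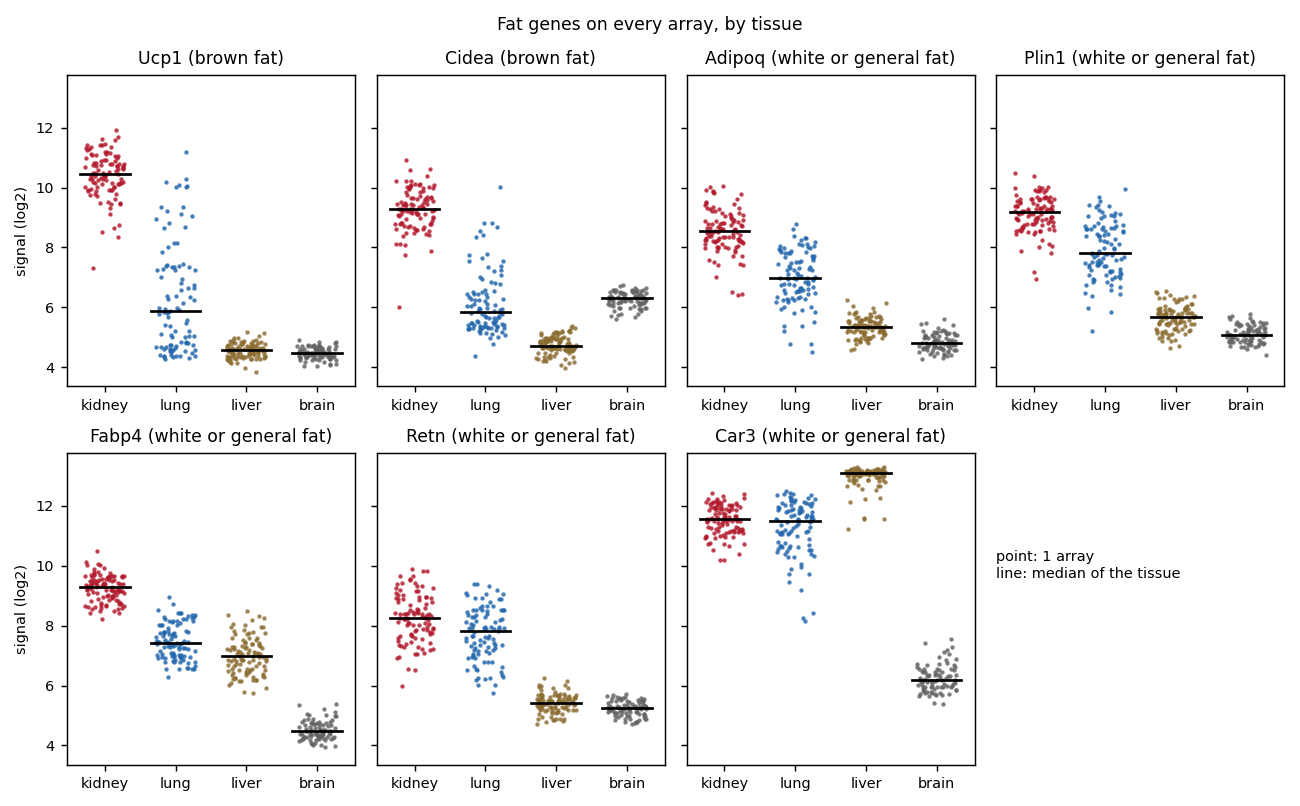
Log2 signal (vertical axis) of the 7 measured fat genes on every array of kidney, lung, liver and brain, with 1 point per array and a line at the median of the tissue. Ucp1 lay between 7.32 and 11.91 in kidney and was spread from 4.28 to 11.17 in lung, while liver and brain stayed at or below 5.17.

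All 7 genes were called higher in kidney than in the mean of the other tissues. The test was limma on cross-by-tissue means over all arrays, with Benjamini-Hochberg adjustment over 13774 genes, and a gene with an adjusted p under 0.05 is referred to as called. Spread was estimated over all tissues together, so the SEs of this fit are not those of kidney or lung alone. In the same comparison 46.7% of all genes were called higher. The difference was 5.29 ± 0.11 (SE) for Ucp1 (limma, adjusted p = 1.5e-161), at a mean of 10.42 in kidney and 5.13 in the others, and 3.57 ± 0.07 for Cidea. Fabp4 (2.90 ± 0.05), Plin1 (2.89 ± 0.06) and Adipoq (2.82 ± 0.06) followed, then Retn (2.14 ± 0.07) and Car3 (1.37 ± 0.06). The median of the 7 differences was 2.89, beside -0.01 over all genes tested.

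In lung the white-fat genes stood above the mean of the other tissues and the brown-fat genes did not. Retn (1.44 ± 0.07), Plin1 (1.31 ± 0.06), Car3 (1.02 ± 0.06), Adipoq (0.75 ± 0.06) and Fabp4 (0.56 ± 0.05) were called higher, beside 47.9% of all genes. Cidea was called lower by limma, at -0.59 ± 0.07 (adjusted p = 2.96e-15), beside 48.4% of all genes. Ucp1 was not called, at -0.13 ± 0.11 (limma, adjusted p = 0.243). The mean of the other tissues includes kidney, which had the highest mean for 6 of the 7 genes. For Car3 the mean in lung (11.27) was below those in kidney (11.53) and liver (12.97), and only brain (6.24) was lower.

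Set directly against lung, kidney was higher for all 7 genes, beside 45.7% of all genes called higher. Ucp1 differed most, by 4.06 ± 0.13 (limma, adjusted p = 1.74e-103), at 10.42 in kidney and 6.35 in lung, and Cidea by 3.12 ± 0.09. The white-fat genes differed less, from Fabp4 (1.76 ± 0.06), Adipoq (1.55 ± 0.07) and Plin1 (1.18 ± 0.08) to Retn (0.53 ± 0.08) and Car3 (0.26 ± 0.07, limma adjusted p = 0.000186). Both brown-fat differences were larger than that of any white-fat gene, with no test made across genes. The ranges still overlapped. For Ucp1 27 of 98 lung arrays reached the lowest kidney array, for Cidea 42, for Adipoq 74, for Plin1 85, for Fabp4 14 and for Car3 88.

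**Figure D2:**
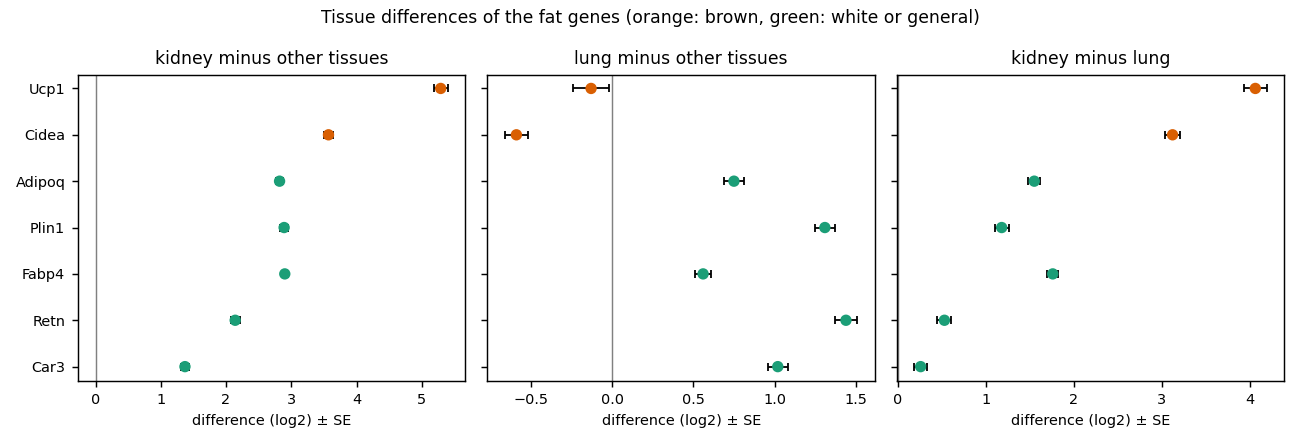
Differences on the log2 scale with their SE (horizontal axes, each with its own scale) for the 7 fat genes, brown in orange and white or general in green. The panels show kidney minus the mean of the other tissues, lung minus the mean of the other tissues, and kidney minus lung, where Ucp1 at 4.06 and Cidea at 3.12 lie beyond the 5 other genes.

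Lung arrays showed several combinations of Ucp1 and Adipoq signal, and kidney arrays 1. Adipoq marks fat cells of either kind, so these counts do not tell white fat from brown. Counting an array as above when it exceeded the highest brain or liver array for that gene, Ucp1 and Adipoq were both above on 102 of 102 kidney arrays. In lung both were above on 55 of 98 arrays, Adipoq alone on 27, Ucp1 alone on 5 and neither on 11. Lung arrays with Ucp1 above were 8 of 10 in CASTxPWK, 8 of 10 in PWKxCAST, 7 of 11 in CASTxWSB, 6 of 12 in WSBxCAST, 7 of 10 in PWKxWSB and 5 of 11 in WSBxPWK. Among the inbred strains they were 9 of 10 in CAST, 8 of 12 in PWK and 2 of 12 in WSB. Ucp1 reached 10 or more on 78 of 102 kidney arrays and on 7 of 98 lung arrays.

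Other genes of fat cells were examined with lists of brown-fat, general adipocyte and white-fat genes that exclude the 8 genes. Of 14 brown-fat genes tested, 10 were called higher and 4 lower in kidney than in the other tissues, beside 46.7% of all genes called higher, with a median difference of 1.07 beside -0.01 over all genes. Among those higher, the smallest p-values were those of Ppara (1.78 ± 0.02), a receptor driving fatty acid oxidation, and Slc25a20 (1.01 ± 0.02), the mitochondrial acylcarnitine carrier. Fabp3 (2.78 ± 0.05), a fatty acid carrier of heart and brown fat, and Cox7a1 (2.89 ± 0.05), a cytochrome oxidase subunit of muscle and brown fat, followed. Kidney tubules are known to express Ppara and Slc25a20 themselves. The 4 called lower in kidney were Zic1 (-1.63), Dio2 (-1.28), Elovl3 (-0.77) and Kcnk3 (-0.73). The share of all genes called lower in kidney is not given here, so counts called lower there are not read against it. In lung 6 of the 14 were higher and 8 lower, near the 47.9% and 48.4% of all genes, with a median of -0.46. The 8 lower were Ppargc1a (-2.64), Ppara (-2.16), Zic1 (-1.87), Elovl3 (-1.80), Dio2 (-0.98), Slc25a20 (-0.69), Slc27a1 (-0.64) and Otop1 (-0.29). The smallest p-values among those higher in lung were those of Slc36a2 (3.70 ± 0.04), an amino acid transporter, Kcnk3 (1.88 ± 0.03), a potassium channel, Prdm16 (1.13 ± 0.02), a regulator of brown-fat identity, and Cox8b (1.81 ± 0.07), a cytochrome oxidase subunit of muscle and brown fat.

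Of 18 general adipocyte genes tested, 16 were called higher and 2 lower in kidney (median 0.94), and 13 higher and 5 lower in lung (median 0.67), beside 46.7% of all genes called higher in kidney and 47.9% in lung. The share of all genes called lower was 48.4% in lung and is not given here for kidney. In kidney the smallest p-values were those of Aqp7 (5.29 ± 0.05), a glycerol channel, Slc2a4 (3.15 ± 0.04), the insulin-responsive glucose transporter, Pck1 (4.36 ± 0.05), a gluconeogenic enzyme, and Gpd1 (1.39 ± 0.03), which makes glycerol phosphate. The proximal tubule is known to make Aqp7 and Pck1 too. Among those higher in lung, Cd36 (3.97 ± 0.03), a fatty acid receptor that endothelium also makes, had the smallest p. Trarg1 (2.08 ± 0.04), a regulator of glucose transporter traffic, and Pnpla2 (0.88 ± 0.02), a triglyceride lipase, followed. Next came Pparg (1.40 ± 0.04), the master regulator of adipocytes. Called lower were Acvr1c (-0.36) and Cebpa (-0.18) in kidney, and Pck1 (-2.61), Dgat2 (-2.23), Gpd1 (-1.68), Acvr1c (-1.02) and Aqp7 (-0.17) in lung.

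Of 9 white-fat genes tested, 5 were called higher and 4 lower in kidney (median 0.49), and 6 higher and 3 lower in lung (median 0.33). The kidney count is near the 46.7% of all genes called higher there, and 47.9% were called higher in lung. For genes called lower the share was 48.4% in lung and is not given here for kidney. Hoxc9 (2.58 ± 0.02), Wt1 (2.61 ± 0.03), Hoxc8 (2.67 ± 0.03) and Tcf21 (1.96 ± 0.03) had the smallest p among those higher in kidney. All 4 are transcription factors of developing organs, and Wt1 and Tcf21 are known from kidney podocytes. In lung they were Tcf21 (3.27 ± 0.03), Npr3 (2.54 ± 0.03), a clearance receptor for natriuretic peptides, Nnat (0.75 ± 0.04) and Wt1 (0.37 ± 0.03). Called lower were Nnat (-1.40), Mest (-1.34), Agt (-1.07) and Npr3 (-0.21) in kidney, and Agt (-2.69), Hoxc9 (-1.19) and Hoxc8 (-1.18) in lung.

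Within a cross and sex, the fat genes varied far more between animals than most genes. The SD within cross-by-sex groups in kidney was 0.67 for Ucp1 and for Retn, 0.59 for Cidea, 0.57 for Adipoq, 0.55 for Plin1, 0.44 for Car3 and 0.42 for Fabp4, against 0.16 for the median gene. Between 98.8% and 99.7% of the genes tested in kidney had a smaller SD. In lung the SD was 1.62 for Ucp1, 0.93 for Cidea, 0.74 for Retn, 0.71 for Plin1, 0.68 for Adipoq, 0.67 for Car3 and 0.51 for Fabp4, against 0.15 for the median gene. Ucp1 in lung had the widest range, 119-fold between the lowest and the highest array, beside 24-fold in kidney.

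The extreme arrays were extreme for most of the genes. The kidney array with the highest Ucp1, CASTxPWK replicate 3, also had the highest Cidea (10.92), Adipoq (10.05), Plin1 (10.48) and Fabp4 (10.48) of 102, and its Car3 (12.33) ranked 3 and its Retn (9.43) ranked 8. The kidney array with the lowest Ucp1, PWKxPWK replicate 8, had the lowest Cidea (6.0) and was among the 3 lowest for Adipoq (6.51), Plin1 (7.17), Fabp4 (8.43), Retn (6.51) and Car3 (10.21). WSBxCAST replicate 10 held the lowest kidney value of Adipoq (6.40), Plin1 (6.96), Retn (6.0) and Car3 (10.18). Other kidney arrays held the highest Retn (WSBxWSB replicate 6, 9.91), the highest Car3 (PWKxPWK replicate 4, 12.42) and the lowest Fabp4 (CASTxCAST replicate 5, 8.23). In lung, PWKxCAST replicate 3 held the highest Ucp1 (11.17), Cidea (10.02), Adipoq (8.79), Plin1 (9.96) and Fabp4 (8.96), but its Retn (8.14) ranked 35 of 98. WSBxWSB replicate 12 had the lowest Ucp1 (4.28) and Retn (5.74) of the lung arrays, while its Cidea (5.41) ranked 70 of 98.

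In kidney the brown and white genes varied together from animal to animal. Deviations from the cross-by-sex means were correlated over the 102 arrays, with a two-sided permutation test within those groups (100000 resamples) and adjustment over the 42 pairs of genes in kidney and lung. Ucp1 with Cidea had a Pearson r of 0.87 (Spearman rho 0.84). The 10 brown with white pairs had r between 0.62 and 0.91 with a median of 0.78, and the 10 white with white pairs between 0.69 and 0.90 with a median of 0.83. The highest were Cidea with Adipoq (0.91, rho 0.88) and Cidea with Plin1 (0.90, rho 0.89), and the lowest was Ucp1 with Retn (0.62, rho 0.60). All 21 pairs in kidney and all 21 in lung had a permutation p and an adjusted p of 1e-05, the smallest the resamples can give.

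In lung r was high within the brown and within the white genes and lower between them. Ucp1 with Cidea had r = 0.95 (rho 0.93) over 98 arrays, and the 10 white with white pairs had r between 0.79 and 0.91 with a median of 0.88. The 10 brown with white pairs lay between 0.44 (Ucp1 with Car3, rho 0.55) and 0.71 (Ucp1 with Fabp4, rho 0.67), with a median of 0.56, and the difference from the other pairs was not tested. Ucp1 exceeded the highest brain or liver array on 60 of 98 lung arrays and Cidea on 22, and both failed the filter on low signals there. The part of low signals in these r values was not tested. Ucp1 with Adipoq was at 0.56 (rho 0.60) in lung and at 0.83 (rho 0.81) in kidney. Without the 2 arrays farthest from the median of the first-named gene, r was between 0.58 and 0.89 in kidney and between 0.43 and 0.95 in lung. Within single crosses r was lower for some pairs, down to -0.02 in kidney (Fabp4 with Retn in WSBxPWK) and to -0.24 in lung (Cidea with Adipoq in PWKxWSB). The labels name no plate, litter or day, and animal numbers were grouped into 25 runs of neighbouring numbers. Deviations from the means of runs by sex gave r between 0.54 and 0.91 in kidney and between 0.39 and 0.95 in lung.

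**Figure D3:**
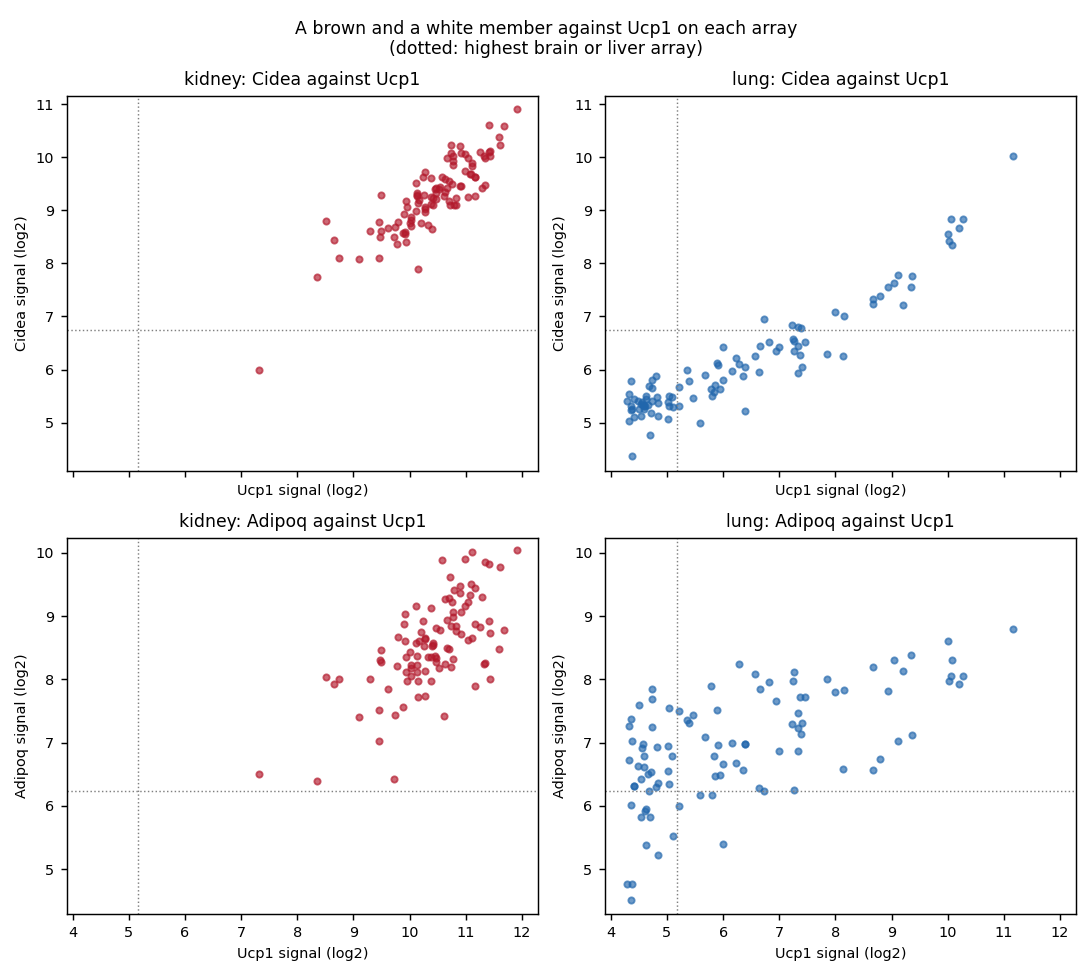
Cidea (upper panels) and Adipoq (lower panels) against Ucp1 as log2 signals, with 1 point per array, kidney on the left and lung on the right, and dotted lines at the highest brain or liver array. Cidea follows Ucp1 in both tissues, and in lung 27 arrays lie above the line for Adipoq but not for Ucp1.

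**Figure D4:**
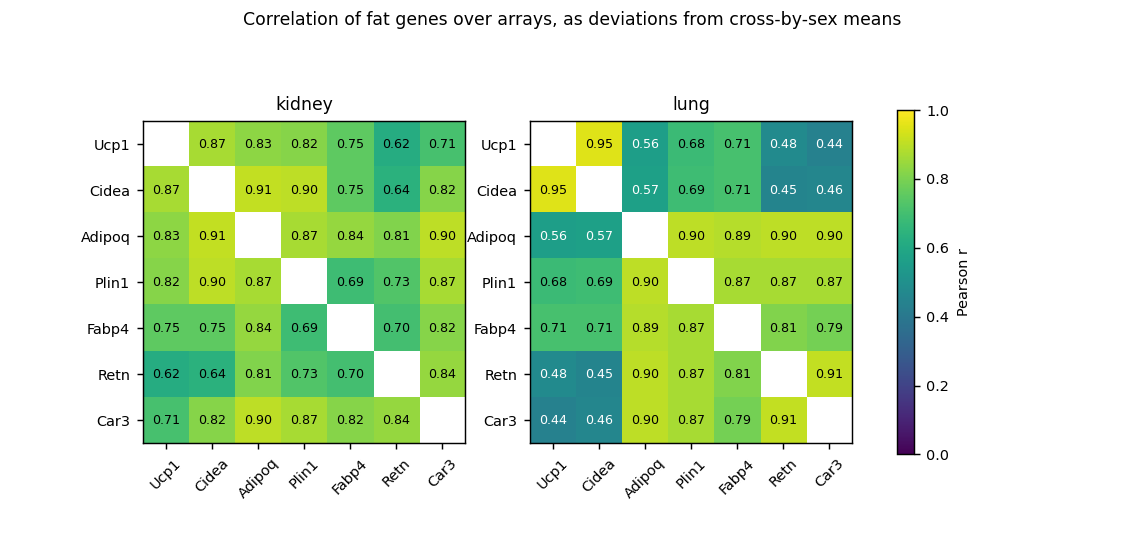
Pearson r between the 7 fat genes over 102 kidney arrays (left) and 98 lung arrays (right), as deviations from cross-by-sex means, on a colour scale from 0 to 1. In lung the brown with white cells lie between 0.44 and 0.71 and the white with white cells between 0.79 and 0.91.

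Kidney and lung of the same animal did not vary together detectably. Over the 93 animals with both tissues, r of the same gene lay between -0.09 (Cidea and Adipoq) and 0.06 (Retn), and rho between -0.13 and 0.03. None of the 7 relations was called (permutation test, adjusted p = 0.935 for each), and the smallest unadjusted p was 0.368, for Cidea. Without the 2 farthest animals r lay between -0.15 and 0.03, and with runs by sex between -0.07 and 0.06.

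The genes most like Ucp1 and Adipoq over arrays included many known from fat cells. Likeness was Pearson r of deviations from cross-by-sex means with every other gene that passed the filter on low signals, 11291 or 11292 genes, and is given as a description, with arrays and their depth of signal shared by all genes. Around Ucp1 in kidney the 10 most alike were Thrsp (0.90), a regulator of lipogenesis, Cox8b (0.88), Cidea (0.87), Prkar2b (0.87), a regulatory subunit of protein kinase A, Adipoq (0.83), Plin1 (0.82), Otop1 (0.82), a proton channel, Cidec (0.80), a droplet protein, Timp4 (0.78) and Lipe (0.77), the hormone-sensitive lipase. Around Ucp1 in lung they were Gpd1 (0.86), Thrsp (0.78), Pnpla3 (0.77), Cox8b (0.73), Aqp7 (0.72), Fabp4 (0.71), Coq8a (0.70), Plin1 (0.68), Dgat2 (0.66), which makes triglyceride, and Cadm3 (0.66). Adipoq ranked 5 around Ucp1 in kidney and 23 in lung, and Car3 ranked 23 and 100. Cidea did not pass the filter in lung and is not ranked there.

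Around Adipoq in kidney the 10 most alike were Cidec (0.94), Cox8b (0.94), Cidea (0.91), Thrsp (0.91), Car3 (0.90), Prkar2b (0.88), Plin1 (0.87), Lgals12 (0.86), a galectin of fat cells, Fabp4 (0.84) and Pparg (0.84). Around Adipoq in lung they were Car3, Retn and Plin1 (0.90 each), Fabp4 (0.89), Aqp7 (0.88), Cidec (0.82), Lgals12 (0.76), Cox8b (0.73), Gpd1 (0.71) and Thrsp (0.71). The median r over all genes was between -0.03 and -0.01 in these rankings. Thrsp and Cox8b were thus among the 10 most alike in all 4 rankings.

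Markers of other cell types varied with the fat genes in some cases. In lung all 7 genes were correlated with the mean of the heart muscle markers, with r from 0.45 (Retn and Car3) to 0.54 (Plin1), each called over the 84 relations tested (permutation, adjusted p from 0.00021 to 0.00042). Of the 8 heart markers 7 were measured, and the log2 of their sum ran from 8.38 to 9.51 over kidney arrays and from 12.7 to 15.3 over lung arrays. The 5 white-fat genes in lung were also correlated with skeletal muscle markers (r from 0.37 for Fabp4 to 0.51 for Car3), 8 of 8 measured, with a log2 sum from 9.13 to 14.36. For Ucp1 and Cidea r was lower and not called (0.21 and 0.23). Their Spearman rho was called (0.31 each, permutation adjusted p = 0.00721 and 0.00719). With endothelial markers the 5 white-fat genes were correlated negatively (r from -0.42 for Plin1 and Fabp4 to -0.30 for Car3), 8 of 8 measured, at a log2 sum of 14.96 to 15.27. In kidney macrophage markers, 8 of 8 measured with a log2 sum of 10.62 to 11.31, were correlated with Plin1 (0.36), Car3 (0.36), Retn (0.33), Cidea (0.32) and Adipoq (0.31). By Pearson r of deviations from cross-by-sex means, no fat gene in kidney was called with adrenal cortex, exocrine pancreas, skeletal muscle or endothelial markers, and none in either tissue with the median of all clusters of the array. Exceptions arose under other measures. In lung, Adipoq and Retn with macrophage markers were not called by r but were by rho (0.30 each, permutation adjusted p = 0.0256 and 0.0254). Plin1 with endothelial markers in kidney was called by Spearman rho (0.27, permutation adjusted p = 0.0448) and with runs by sex (r = 0.40, adjusted p = 0.0026), and Car3 with the array median in kidney with runs by sex (r = 0.38, adjusted p = 0.0221). The part of these cell types in the results was not tested.

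The 9 crosses differed in most of the fat genes. By limma's F-test over cross-by-sex means, 6 of 7 genes were called in kidney, where 91.1% of all genes were, and 5 of 5 tested in lung, where 93.9% were. Adipoq had the highest F in kidney (6.08, adjusted p = 5.2e-06), followed by Retn (5.41), Cidea (4.19), Car3 (2.93), Ucp1 (2.77) and Plin1 (2.16, adjusted p = 0.0417), and Fabp4 was not called (2.05, adjusted p = 0.0533). The omission of each of 21 arrays ended the Plin1 call. Fabp4 became called without any single one of 28 arrays, with F at 3.11 without CASTxCAST replicate 5, and with array weights (adjusted p = 0.0495). In lung Car3 had the highest F (10.88, adjusted p = 5.21e-10), followed by Plin1 (9.22), Adipoq (8.32), Retn (5.12) and Fabp4 (3.17). Ucp1 and Cidea failed the filter on low signals in lung, and without it F was 3.88 for Ucp1 (adjusted p = 0.00103) and 4.17 for Cidea (adjusted p = 0.000538). When each run of neighbouring animal numbers was given a random effect, 3 genes were called in kidney and 4 in lung. The calls of Ucp1 (adjusted p = 0.19), Car3 (0.307) and Plin1 (0.349) in kidney and of Fabp4 (0.193) in lung were lost.

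Ucp1 in kidney averaged 10.72 ± 0.51 (SD, n = 10) in WSBxPWK, 10.44 ± 0.59 (n = 12) in CASTxPWK, 10.43 ± 0.40 (n = 11) in CASTxWSB, 10.42 ± 0.66 (n = 11) in PWKxCAST, 10.38 ± 0.75 (n = 12) in PWKxWSB and 10.10 ± 0.75 (n = 11) in WSBxCAST. The inbred strains were at 11.06 ± 0.58 (n = 11) in CAST, 10.25 ± 1.04 (n = 12) in PWK and 9.96 ± 0.95 (n = 12) in WSB. Inbred CAST was highest and inbred WSB lowest, and no neighbours in the order differed by more than 0.34, less than the smallest SD of 0.40. In lung Ucp1 averaged 7.68 ± 1.94 in CASTxPWK, 7.60 ± 2.37 in PWKxCAST, 6.30 ± 1.71 in PWKxWSB, 6.0 ± 1.90 in WSBxCAST, 5.90 ± 1.30 in CASTxWSB and 5.21 ± 0.80 in WSBxPWK (SD, n = 10 to 12). CAST stood at 6.87 ± 1.58, PWK at 6.54 ± 1.78 and WSB at 5.09 ± 1.06. The F1 crosses of CAST and PWK were highest and inbred WSB lowest, with neighbours at most 0.73 apart and an SD of at least 0.80.

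Adipoq ran in another order. In kidney it averaged 9.38 ± 0.35 in WSBxPWK, 8.74 ± 0.52 in PWKxWSB, 8.59 ± 0.67 in CASTxPWK, 8.48 ± 0.55 in CASTxWSB, 8.25 ± 0.45 in PWKxCAST and 8.12 ± 0.78 in WSBxCAST (SD, n = 10 to 12). The inbred strains were at 8.88 ± 0.93 in PWK, 8.45 ± 0.65 in WSB and 8.06 ± 0.66 in CAST, so that CAST, the highest for Ucp1, was the lowest for Adipoq. The largest gap of neighbours was 0.49, between WSBxPWK and inbred PWK, beside SDs of 0.35 to 0.93. In lung Adipoq averaged 7.80 ± 0.57 in PWKxCAST, 7.56 ± 0.49 in CASTxPWK, 7.46 ± 0.55 in WSBxCAST, 6.94 ± 0.90 in PWKxWSB, 6.86 ± 0.48 in WSBxPWK and 6.85 ± 0.84 in CASTxWSB. The inbred strains were at 7.07 ± 0.81 in PWK, 6.57 ± 0.57 in CAST and 5.88 ± 1.0 in WSB, with the largest gap, 0.69, between CAST and WSB. Inbred WSB lung was lowest for 6 of the 7 genes, and inbred PWK lung for Retn.

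**Figure D5:**
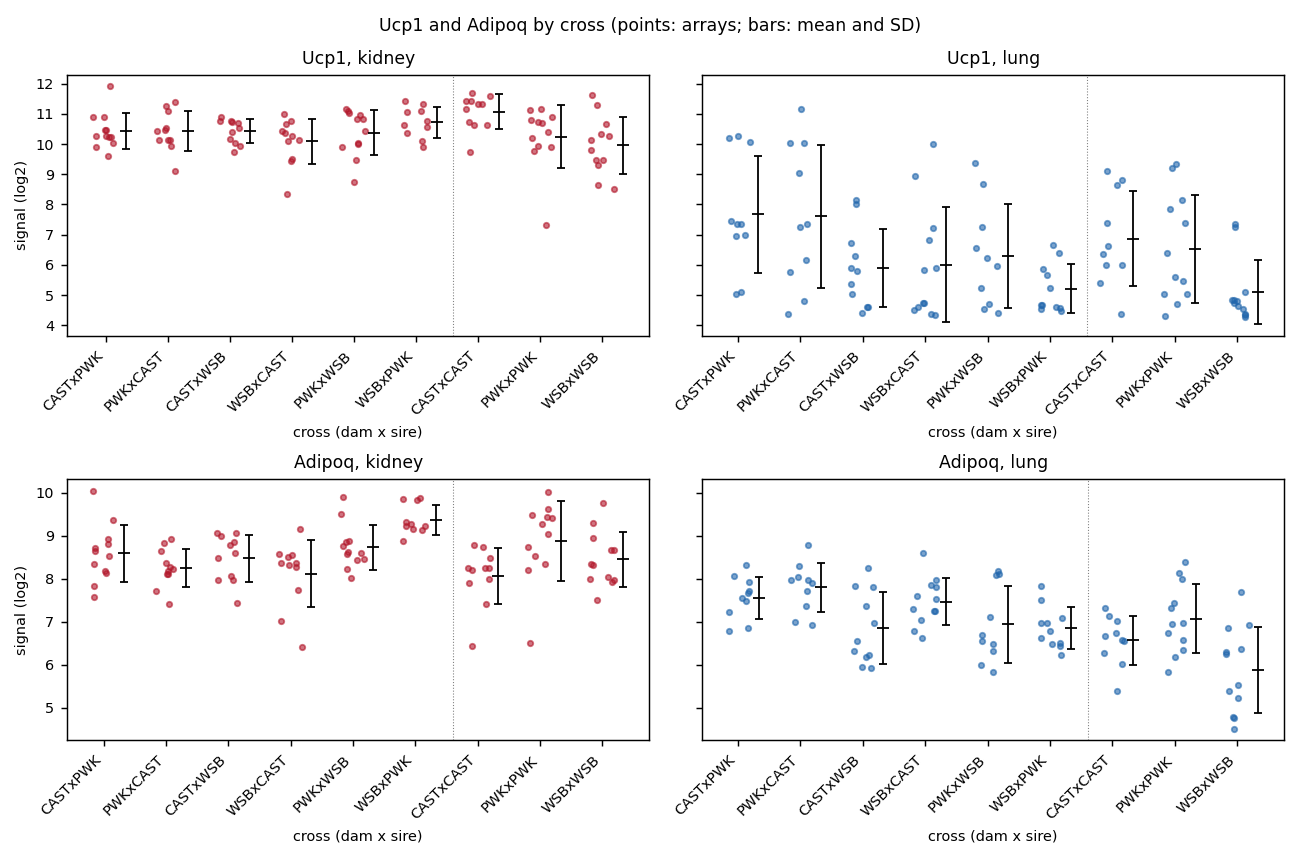
Log2 signal (vertical axis) of Ucp1 (upper panels) and Adipoq (lower panels) on every kidney array (left) and lung array (right), by cross, with the mean and SD as bars, and F1 crosses left of the dotted line and inbred strains right of it. Inbred CAST had the highest kidney mean of Ucp1 (11.06) and the lowest of Adipoq (8.06), and inbred WSB had the lowest lung means of both (5.09 and 5.88).

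Among the inbred strains, CAST kidneys had the highest brown-fat signal. Against PWK, CAST was called higher for Cidea (1.01 ± 0.24 SE, at 9.73 and 8.73) and Ucp1 (0.79 ± 0.27, at 11.04 and 10.25), beside 27.2% of all genes, and lower for Adipoq (-0.84 ± 0.23, at 8.04 and 8.88), beside 33%. The Ucp1 call was lost without PWKxPWK replicate 8 (difference 0.53) and with the runs as a block (limma, adjusted p = 0.0538). Against WSB, CAST was called higher for Ucp1 (1.08 ± 0.27), Cidea (0.90 ± 0.24), Plin1 (0.73 ± 0.22), Car3 (0.51 ± 0.18) and Fabp4 (0.43 ± 0.17), beside 34.1% of all genes. The Fabp4 call was lost without CASTxCAST replicate 1 or 2 (0.34 and 0.38), and the Car3 (adjusted p = 0.0724) and Fabp4 (0.133) calls with the runs as a block.

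PWK kidneys were called higher than WSB kidneys for Car3 (0.45 ± 0.17, beside 37.5% of all genes) and lower for Retn (-0.60 ± 0.26, beside 23.2%). Neither call held with the runs as a block (limma, adjusted p = 0.152 and 0.133). Leaving out PWKxPWK replicate 1 also ended the Car3 call (0.38), and the omission of each of 12 arrays the Retn call.

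In lung Car3, Adipoq and Plin1 were lower in WSB than in both other strains. CAST was called higher than WSB for 5 of 5 genes tested, beside 35.9% of all genes, led by Car3 (1.78 ± 0.28, at 11.64 and 9.86, limma adjusted p = 6.45e-08), Plin1 (1.65 ± 0.30) and Retn (1.08 ± 0.31), then Adipoq (0.70 ± 0.29) and Fabp4 (0.62 ± 0.22). PWK was called higher than WSB for Car3 (1.42 ± 0.27), Adipoq (1.19 ± 0.27) and Plin1 (0.97 ± 0.28), beside 34.7%, while Fabp4 (0.14 ± 0.21) and Retn (-0.28 ± 0.29) were not called. The listed white-fat genes that exclude the 8 did not run this way. Of 7 tested in lung, 1 was called higher and 2 lower in CAST than in WSB, and 2 higher and 3 lower in PWK than in WSB. Of 17 listed general adipocyte genes, 13 were called higher and 2 lower in CAST than in WSB, and 8 and 5 in PWK. Of 10 listed brown-fat genes these counts were 5 and 1 in CAST, and 0 and 5 in PWK. The shares of all genes called higher were again 35.9% for CAST and 34.7% for PWK. The shares called lower are not given here, so the counts called lower are not read against them. CAST was called higher than PWK for Retn (1.37 ± 0.31, at 8.34 and 6.97, limma adjusted p = 8.45e-05), Plin1 (0.69 ± 0.30) and Fabp4 (0.48 ± 0.22), beside 33.1%. With the runs as a block the Adipoq (adjusted p = 0.119) and Fabp4 (0.0627) calls of CAST against WSB and the Plin1 (0.127) and Fabp4 (0.143) calls of CAST against PWK were lost. Those of Plin1 and Fabp4 against PWK were also lost with no filter (limma, adjusted p = 0.0511 and 0.0617). The same held with array weights (0.154 and 0.144) and an additive model (0.0617 and 0.0567). Array weights also ended the Adipoq call against WSB (0.0855). With them Adipoq was called lower in CAST than in PWK (-0.67, limma adjusted p = 0.0498). The omission of each of 6, 12 and 13 arrays ended the calls of Adipoq against WSB, and of Plin1 and Fabp4 against PWK. Without the filter on low signals, CAST lung was higher than WSB lung by 1.91 for Ucp1 (limma, adjusted p = 0.0163) and by 1.01 for Cidea (adjusted p = 0.0282).

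The strains did not shift all fat genes alike. Differences between a pair of the genes on the same array were compared between inbred strains by permutation within sex, over 126 tests chosen after the values were seen. In kidney Ucp1 minus Adipoq was larger in CAST than in PWK by 1.63 and than in WSB by 1.49 (permutation, adjusted p = 9e-05 each). Between CAST and PWK, Adipoq minus Plin1 differed by -1.09 in kidney and -1.18 in lung, and Adipoq minus Retn by -1.33 and -1.85 (adjusted p = 9e-05 each). Between CAST and WSB, Adipoq minus Plin1 differed by -1.14 in kidney (adjusted p = 0.000148) and -0.95 in lung (0.00028). Adipoq minus Retn differed there by -0.38 in lung (adjusted p = 0.0349) and was not called in kidney (-0.30, adjusted p = 0.0773). Between PWK and WSB, Retn minus Car3 differed by -1.04 in kidney (adjusted p = 0.000252) and -1.70 in lung (adjusted p = 9e-05). Of 21 pairs, 13 were called for CAST against PWK, 14 for CAST against WSB and 9 for PWK against WSB in kidney, and 8, 8 and 12 in lung. Pairs of other genes were not examined, so no share over all genes stands beside these counts. Whether fat genes differ from other genes in this was not tested.

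F1 animals lay off the mean of their parent strains for some genes. In kidney those of CAST and PWK were below the mid-parent value for Retn (-0.62 ± 0.19, at 7.84 and 8.46) and Car3 (-0.43 ± 0.13), beside 16.6% of all genes lower, and those of CAST and WSB for Retn (-0.70 ± 0.19, beside 20%). The F1 animals of PWK and WSB were above it for Cidea (0.55 ± 0.17, at 9.33 and 8.78, beside 18.6% of all genes higher). In lung the F1 animals of CAST and WSB were above for Adipoq (0.92 ± 0.20, at 7.15 and 6.23), Car3 (0.87 ± 0.20) and Plin1 (0.60 ± 0.21), beside 14.9% of all genes higher. Those of CAST and PWK (0.84 ± 0.21, beside 10.1%) and of PWK and WSB (0.50 ± 0.20, beside 22.7%) were above for Adipoq. With the runs as a block none of the 4 kidney calls was made, and 2 of the 5 lung calls were, Adipoq and Car3 of CAST and WSB. The Plin1 call was lost without WSBxWSB lung replicate 8 (0.51), and the omission of each of 19 arrays ended the Adipoq call of PWK and WSB.

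Reciprocal crosses, which carry the same autosomes with dam and sire exchanged, differed in 1 call. Retn in kidney was higher in CASTxWSB than in WSBxCAST by 0.95 ± 0.28 (limma, adjusted p = 0.0421), at 8.53 and 7.58, beside 1.28% of all genes higher. That call was lost with no filter on low signals (adjusted p = 0.0614), with an additive model (0.11), with the runs as a block (0.974) and by the omission of each of 12 arrays. No other fat gene was called by limma in kidney. There the unadjusted p was under 0.05 for 1 of 7 genes between CASTxPWK and PWKxCAST (3.03% of all genes called) and for 2 of 7 between PWKxWSB and WSBxPWK (1% called). In lung 0 of 5 genes were called by limma in any pair, beside 0.611% of all genes for CASTxPWK and PWKxCAST, 38.8% for CASTxWSB and WSBxCAST and 8.4% for PWKxWSB and WSBxPWK. Between CASTxWSB and WSBxCAST all 5 lung differences were negative, from -0.62 to -0.37, and 1 had an unadjusted p under 0.05, while in the other pairs 0 had. With array weights 2 of these 5 were called, Adipoq (-0.72) and Fabp4 (-0.45).

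No difference between the sexes was detected. Female minus male differences lay between -0.11 and 0.08 in kidney and between -0.01 and 0.14 in lung, and 0 of 7 and 0 of 5 genes were called by limma, with 0 at an unadjusted p under 0.05. In the same tests 10.9% of all genes were called in kidney and 3.52% in lung. The smallest adjusted p was 0.374 in kidney and 0.576 in lung.

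Whether the crosses differed alike in kidney and lung was tested as an interaction (limma F-test with 8 degrees of freedom). All 7 genes were called, beside 67.6% of all genes, led by Adipoq (F = 11.01, adjusted p = 5.14e-13). The fit took its spread from all arrays, brain and liver included, where the fat genes varied less. For Ucp1 the SD within cross-by-sex groups was 0.20 in brain and 0.26 in liver, against 0.67 in kidney and 1.62 in lung. With kidney and lung arrays alone, all 14 results of the interaction and of kidney minus lung kept their side of the threshold. The interaction was not run with the runs of animal numbers as a block. For Adipoq, WSBxPWK was highest of the 9 crosses in kidney (9.38) but stood at 6.86 in lung, where PWKxCAST was highest (7.80). For Retn, inbred WSB was highest in kidney (8.81) and inbred CAST in lung (8.32).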

How the data were processed

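Gene expression was measured on 386 arrays, 1 per animal and tissue. The deposited table holds log2 signals of 35556 probe clusters, made by the authors with RMA in Affymetrix Expression Console, per the submitters' processing notes. The sources used here do not say if RMA was run on all arrays at once. Clusters with 1 symbol (21218) gave 18820 genes, while 1881 clusters had several symbols and 12457 none. Samples were grouped by the labels' cross, sex and tissue. limma 3.58.1 in R 4.3.3 was fitted to all arrays with 36 cross-by-tissue means, and to each tissue with 18 cross-by-sex means. Genes with a mean at or above the 40th percentile of the tissue were kept (11292 per tissue), and p-values were adjusted over all of them by Benjamini-Hochberg. The fits were tested on simulated data. Nothing in the labels ties animals to litters, so p-values measure the spread between these animals. Members and lists were chosen with earlier results of these data known. Besides the members, up to 4 called genes per list, higher in that tissue and of smallest p, were named. Genes of the fat lists called lower were named as well. The animal pairs the tissues, and its correlation across tissues was 0.04, while that of runs of animal numbers was 0.26 in kidney and 0.21 in lung.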

Additional observations from a re-analysis of the deposited data

Results flagged for a closer look

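The differences among the crosses differed between kidney and lung for each of the 7 genes in the interaction test (limma, 8 degrees of freedom). Its spread was taken from all arrays, brain and liver included. F was 11.01 for Adipoq (adjusted p = 5.14e-13), 10.86 for Car3 (7.85e-13), 10.30 for Retn (3.97e-12), 6.93 for Plin1 (7.53e-08), 5.07 for Ucp1 (1.72e-05), 3.82 for Fabp4 (0.00059) and 3.75 for Cidea (0.000724). Dixon's criterion was applied to 35 sets of values, each of a fat gene in a kidney or lung group of 4 to 10 arrays. Such groups were WSBxPWK in kidney and CASTxCAST, CASTxPWK, PWKxCAST and PWKxWSB in lung, each with 10 arrays. Of these 35 sets, 0 held a value that stood apart from the rest. Groups of more than 10 arrays were not tested for such values. Among them was PWKxPWK kidney with 12 arrays, where Ucp1 was 7.32 in replicate 8 beside a median of 10.56.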

How the results depend on the processing

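No called result turned its direction under any alternative run. With the animal as a random block, which pairs the tissues of 1 animal, all 28 results of the tissue fit kept their side of the threshold, with 7 of 7 genes still called for kidney minus lung. With a random effect for each run of animal numbers the inbred contrasts gave 5 calls in kidney, against 10 without the block, and 7 in lung, against 11. The mid-parent contrasts gave 0 in kidney, against 4, and 2 in lung, against 5. The 9 crosses gave 3 in kidney, against 6, and the reciprocal contrasts 0 in kidney, against 1. The runs are not known to be batches, and the cause was not tested. A filter at the 60th percentile removed lung genes from the test, and left 1 call for the 9 crosses, 2 for the inbred contrasts and 1 for the mid-parent contrasts in lung. The reciprocal call in kidney was also absent (0) with no filter and with an additive model, and array weights gave 2 reciprocal calls in lung, against 0. Leaving out each array in turn gave 4 to 7 mid-parent calls in kidney and 3 to 7 in lung, 9 to 13 inbred calls in kidney and 8 to 11 in lung, 5 to 7 for the 9 crosses in kidney, and 0 to 1 reciprocal calls in each tissue. Of 42 calls tested this way, 11 were ended by some omission, and 15 other comparisons became called. With runs by sex, macrophage markers in kidney were no longer called with Cidea (adjusted p = 0.108) or Adipoq (0.0528), and Plin1 with endothelial markers (0.0026) and Car3 with the array median (0.0221) became called in kidney.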
